A study of Mus musculus with 4 samples.

Results

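TGFb was compared with no TGFb, with IL6 present throughout, in regulatory T cell (Treg) samples of cultured mouse CD4 T cells. The Treg samples of 4 arrays with TGFb and IL6 (TGFb_IL6) were set against the Treg samples of 3 arrays with IL6 and no TGFb (IL6). These are 7 of the 26 channels of a series of 13 two-colour arrays, chosen from the labels, which give the dye of the Treg sample on each array. The CD4+ cells came from lymph node and grew for 4 days on plates coated with anti-CD3 at 1 ug/ml. Both groups also received IL2 at 100 units/ml and IL6 at 25 ng/ml in an incubation of 3 days, and TGFb_IL6 cells received TGFb at 4 ng/ml in addition. For comparison, the TGFb and IL2 conditions of the series held 3 arrays each, with IL2 and no IL6. A T-effector sample shared every array with its Treg sample, labelled with the other dye. Strain, genotype, age and sex are not in the labels, nor is the way in which Treg and T-effector samples were separated. Nothing in the labels tells whether the replicate arrays stand for separate cultures or mice, so a p-value here covers array-to-array spread that may be technical. In samples of many cells, fewer cells of a type and less RNA per cell cannot be told apart.

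TGFb binds a pair of receptor kinases, encoded by Tgfbr1 and Tgfbr2, which phosphorylate Smad proteins that enter the nucleus and switch on target genes, among them inhibitors of the pathway itself. IL6 acts through a receptor with the shared chain gp130, encoded by Il6st, and the transcription factor STAT3. In CD4 T cells TGFb alone favours Foxp3, the factor that defines Treg, whereas TGFb together with IL6 favours Th17 cells, which make the cytokines IL17A and IL17F. The aryl hydrocarbon receptor, encoded by Ahr, is a ligand-activated factor of Th17 cells that switches on the cytochrome genes Cyp1a1 and Cyp1b1.

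The promoters of 4 genes are shown because they make 2 pairs on which the results turn: the IL17 cytokine genes Il17f and Il17a, of which the first changed and the second did not pass the test, and the 2 cytochrome genes that the receptor Ahr is known to act on. Each runs 5′ to 3′ on the gene's strand, with 250 bases before the start site and 50 after it, from RefSeq (GRCm38.p6). Capitals mark, in Il17f and Il17a, the nuclear receptor motif AGGTCA or its reverse complement, and in Cyp1a1 and Cyp1b1 the AHR core GCGTG or its reverse complement. Il17f lies at chr1:20784221-20784520 (minus strand), Il17a at chr1:20730655-20730954 (plus strand), Cyp1a1 at chr9:57697363-57697662 (plus strand) and Cyp1b1 at chr17:79715012-79715311 (minus strand).
Il17f: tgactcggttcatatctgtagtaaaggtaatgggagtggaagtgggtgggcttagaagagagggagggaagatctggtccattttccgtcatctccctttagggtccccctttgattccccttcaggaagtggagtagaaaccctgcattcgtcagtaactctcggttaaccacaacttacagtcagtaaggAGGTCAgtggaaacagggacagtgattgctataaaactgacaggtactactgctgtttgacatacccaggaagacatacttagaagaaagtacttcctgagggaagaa
Il17a: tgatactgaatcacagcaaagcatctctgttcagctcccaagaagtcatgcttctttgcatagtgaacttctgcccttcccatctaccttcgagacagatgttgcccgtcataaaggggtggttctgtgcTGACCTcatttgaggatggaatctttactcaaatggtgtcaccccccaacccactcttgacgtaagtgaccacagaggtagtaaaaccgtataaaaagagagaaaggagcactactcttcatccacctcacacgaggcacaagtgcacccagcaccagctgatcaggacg
Cyp1a1: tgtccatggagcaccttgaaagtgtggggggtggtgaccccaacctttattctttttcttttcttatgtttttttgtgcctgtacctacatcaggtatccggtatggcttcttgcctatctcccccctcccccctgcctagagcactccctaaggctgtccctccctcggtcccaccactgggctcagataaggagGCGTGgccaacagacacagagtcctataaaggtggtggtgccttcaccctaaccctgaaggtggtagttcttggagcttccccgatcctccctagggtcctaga
Cyp1b1: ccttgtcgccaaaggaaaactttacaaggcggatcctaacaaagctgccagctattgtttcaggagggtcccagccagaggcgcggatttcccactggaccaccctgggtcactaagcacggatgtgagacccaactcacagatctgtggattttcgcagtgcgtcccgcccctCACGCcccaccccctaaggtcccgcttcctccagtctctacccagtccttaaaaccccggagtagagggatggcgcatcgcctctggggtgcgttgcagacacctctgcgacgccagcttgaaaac

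Both IL17 promoters held 1 nuclear receptor motif, which began at -58 in Il17f and at -120 in Il17a, counted from the start site. Both cytochrome promoters held 1 AHR core, at -54 in Cyp1a1 and at -76 in Cyp1b1. The Smad box CAGAC was found at -44 in Cyp1a1 and at 20 in Cyp1b1, and the STAT motif TTCNNNGAA in none of the 4. Motifs were searched on both strands, and none of the matches overlapped another. Among all 32851 promoters of the table, 16.3% held the nuclear receptor motif, 32.4% the AHR core, 49.6% the Smad box and 8.3% the STAT motif, so single matches are common. Of 901 promoters of genes that rose with TGFb below, 49.3% held the AHR core, of 987 promoters of genes that fell 45.2% did, and of 15540 promoters of all genes tested 45% did. The Smad box stood in 51.7% of the promoters of genes that rose, 49.3% of those of genes that fell and 48.5% of those of all genes tested. For the nuclear receptor motif the same shares were 12.8%, 12.4% and 13.6%, and for the STAT motif 7.99%, 5.88% and 7.15%. A match is only a description of the letters in this window.

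Signals are given as log2 signal of the Treg channel, normalized between arrays. A difference is TGFb_IL6 minus IL6 ± its standard error (SE) from a limma fit over all 13 arrays and both cell types, in which 4 and 3 Treg channels belong to these groups and the spread is shared by all groups, and a gene is called where its p, adjusted by Benjamini-Hochberg over 19932 genes, lies under 0.05. A constant of 50 was added to the signals before logs were taken, so folds of dim genes are understated. The arrays are numbered in the order of the labels, and of the 5 slides only 1, slide E, held both conditions (TGFb_IL6 array 1 and IL6 arrays 1 and 3). Between 43% and 60.8% of probes were well above background in the Treg channels of TGFb_IL6 arrays, and between 52.2% and 57.3% in those of IL6 arrays.

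The Treg label held against its markers. Treg samples exceeded T-effector samples in Foxp3 on 7 of 7 arrays, by 1.72 to 2.71 in log2 signal, and Ctla4, an inhibitory receptor of Treg, on 7 of 7 arrays, by 0.32 to 1.77. Il2ra, the high-affinity IL2 receptor chain, was higher on 6 of 7, with -0.44 on IL6 array 2. The IL6 arrays did not form a uniform group. The Y-linked genes Ddx3y and Kdm5d were well above background in the Treg channels of 4 of 4 TGFb_IL6 arrays and of IL6 array 2, and not in those of IL6 arrays 1 and 3. Eif2s3y, a Y-linked translation factor gene, rose by 2.76 (limma adjusted p = 0.000619), with no value on IL6 array 2. Ddx3y had a signal of 8.12, 8.01, 7.82 and 7.77 with TGFb and IL6, against 6.14, 8.91 and 5.81 with IL6. Xist, the X-inactivation RNA, had 11.74, 11.81, 11.40 and 12.01 with TGFb and IL6, against 13.19, 11.04 and 12.53 with IL6. IL6 arrays 1 and 3 lay together at both genes, outside the range of the TGFb_IL6 arrays, and array 2 lay on the other side. The part that this difference between samples has in the results was not tested. For part of the genes, results are therefore also given without IL6 arrays 1 and 3, which leaves array 2 as the only IL6 array. They are given without IL6 array 2 where that changes a call. Where no value without arrays 1 and 3 is given, the difference may be smaller or larger there. Nt5e differed by 2.39 beside 3.42 with all arrays, and Tnfsf8 by -1.59 beside -2.54. Serpinb5 differed by 5.17 beside 4.32, and Nrn1 by -4.24 beside -2.96. With 1 IL6 array the spread comes from the other groups, and that array is assumed to vary like them, so those adjusted p-values do not measure replication in the IL6 group.

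With TGFb added to IL6, 2029 genes passed the threshold in Treg, or 10.2% of all genes tested. Of these, 981 (4.92%) were higher and 1048 (5.26%) lower, and 292 and 246 of them by at least 2-fold. A difference of at least 8-fold was reached by 15 genes that rose and by 3 that fell. The median difference of all genes was -0.03. Every list count below is to be read beside these shares, 4.92% higher and 5.26% lower over all genes tested. The 4 and 3 Treg signals did not overlap for 897 of the 981 genes that rose and 927 of the 1048 that fell, where 16.9% of all genes tested did not overlap (8.19% higher and 8.66% lower on every array). Without IL6 arrays 1 and 3, 1858 genes passed, 588 higher and 1270 lower, and 869 of the 2029 were among them. Of the 2029, 2003 kept their direction there. The arrays left in that fit are also behind the 2029 calls, so this agreement is in part built in. Over all genes tested, fewer rose and more fell there than with all arrays. The list counts without IL6 arrays 1 and 3 given below carry that shift too. Within slide E, whose 3 arrays are among the 7 behind the calls, the difference was 3.01 for Il17f, 2.95 for Ahr and -3.01 for Ikzf2. The count was 1264 without IL6 array 3.

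**Figure D1:**
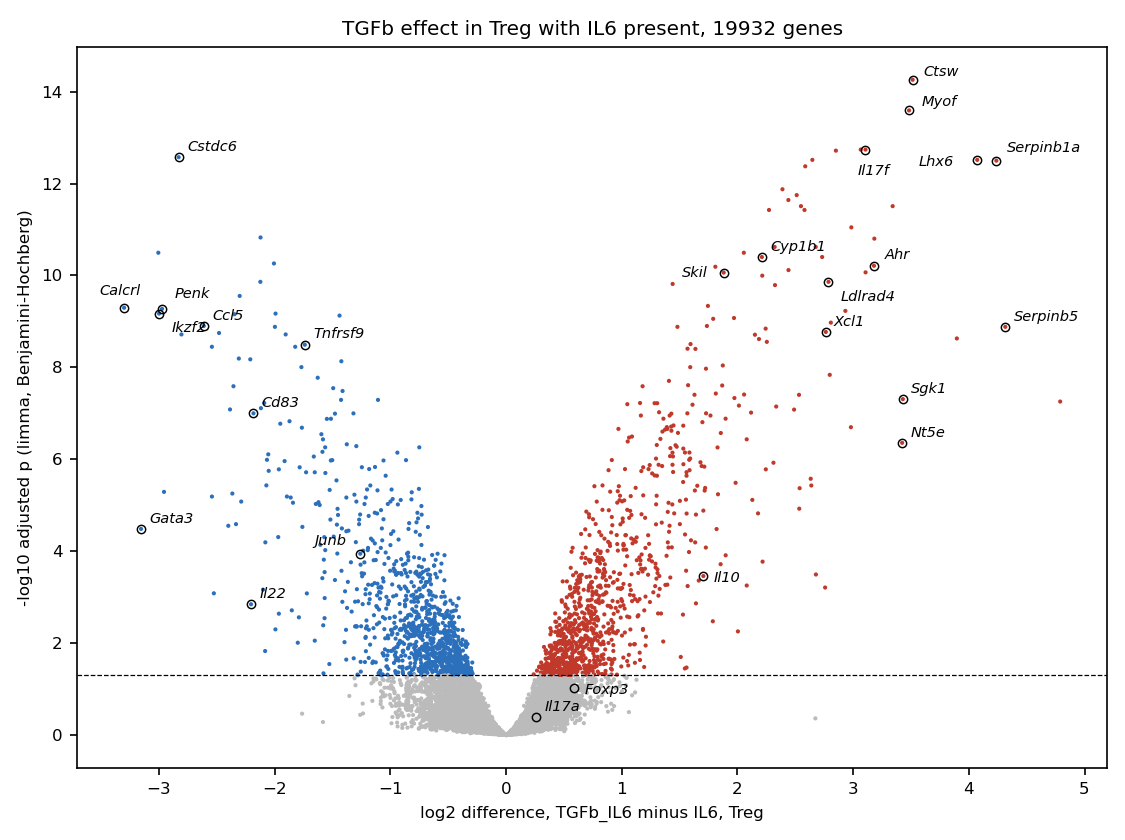
The log2 difference between TGFb_IL6 and IL6 in Treg (x axis) against -log10 of the limma adjusted p (y axis) for 19932 genes, with the threshold of 0.05 as a dashed line, 981 genes that rose in red and 1048 that fell in blue. Serpinb5, Serpinb1a and Lhx6 lie farthest right among the labelled genes, Calcrl and Gata3 farthest left, and Foxp3 and Il17a lie under the line; the point at 4.79 is a probe that carries the name Igh-VJ558 in the files and no match in the reference table.

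Genes of the Th17 lineage split between members that rose steeply and members that fell or did not pass the test. Il17f, which encodes the cytokine IL17F, had Treg signals of 9.77, 9.85, 9.82 and 9.75 with TGFb and IL6, against 6.67, 6.51 and 6.85 with IL6. All 4 signals with TGFb lay about 3 log2 units above all 3 without it, and the replicates lay close together. The difference was 3.11 ± 0.12, or 8.61-fold (limma adjusted p = 1.83e-13). Il17a, which encodes IL17A and lies next to Il17f on chromosome 1, had 7.63, 7.36, 7.87 and 7.59 with TGFb and IL6, against 7.23, 7.23 and 7.48 with IL6. The groups overlapped, and the difference of 0.26 ± 0.17 did not pass the threshold (limma adjusted p = 0.404).

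Cytokines and receptors linked to Th17 cells also changed. Il10, an anti-inflammatory cytokine, had 9.83, 10.40, 9.5 and 10.61 with TGFb and IL6, against 8.88, 7.81 and 8.48 with IL6, and rose by 1.71 ± 0.29 (limma adjusted p = 0.000348). Il9, a cytokine that TGFb is known to promote in T cells, had 9.92, 10.27, 9.81 and 10.21 with TGFb and IL6, against 8.14, 6.90 and 8.47 with IL6, and rose by 2.22 ± 0.35 (limma adjusted p = 0.000169). For both, the 4 signals with TGFb lay above all 3 without it, and IL6 array 2 was the lowest. Il1r1, the IL1 receptor that sustains Th17 cells, had a mean log2 signal of 9.14 ± 0.05 with TGFb and IL6 and 7.69 ± 0.27 with IL6 (SD, n = 4 and 3), without overlap, and rose by 1.41 ± 0.13. Il22, a cytokine of Th17 and Th22 cells that acts on epithelia, had 6.93, 7.18, 6.77 and 7.37 with TGFb and IL6, against 10.20, 7.55 and 9.98 with IL6. All 4 signals with TGFb were below the 3 without it, but IL6 array 2 lay near them and arrays 1 and 3 far above. Il22 fell by 2.20 ± 0.43 (limma adjusted p = 0.00143), with a second probe at -1.86, but without IL6 arrays 1 and 3 its difference was -0.49 (adjusted p = 0.222).

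Of the 20 Th17 genes tested, 7 rose (Il17f, Il1r1, Ahr, Ccl20, Stat3, Il9 and Il10) and 4 fell (Il22, Batf, Csf2 and Il12rb1), beside 4.92% and 5.26% of all genes tested. The list median was 0.27, against -0.03 for all genes. Batf, an AP-1 factor needed for Th17 cells, fell by 1.38 ± 0.31 (limma adjusted p = 0.00515), but differed by -0.31 without IL6 arrays 1 and 3 (adjusted p = 0.694). There, 8 Th17 genes rose and 2 fell.

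**Figure D2:**
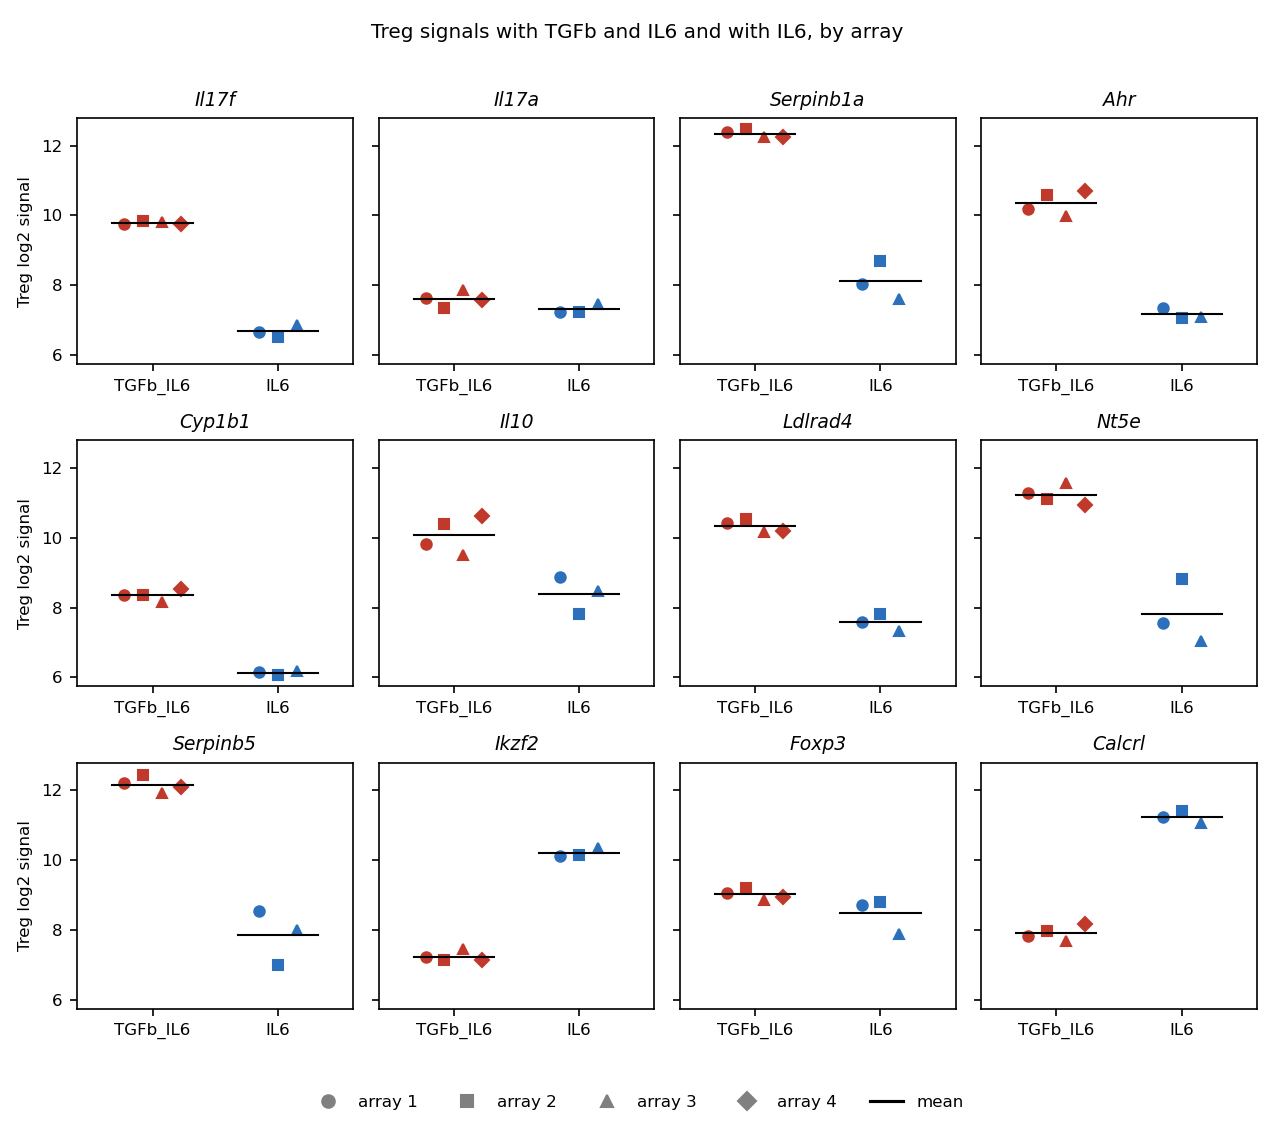
Treg log2 signals (y axis, 1 scale for all panels) of 12 genes with TGFb and IL6 (TGFb_IL6, red, 4 arrays) and with IL6 (blue, 3 arrays), with 1 point per array and the mean as a bar. The groups are apart at Il17f, Serpinb1a, Ahr, Cyp1b1, Il10, Ldlrad4, Nt5e and Serpinb5 (TGFb_IL6 higher) and at Ikzf2 and Calcrl (TGFb_IL6 lower), they overlap at Il17a, and at Foxp3 they lie next to each other.

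The Ahr pathway had a list median of 1.25 over 9 members, and of 0.25 over 11 with no filter on dim probes. Ahr itself had Treg signals of 10.17, 10.59, 9.98 and 10.71 with TGFb and IL6, against 7.35, 7.07 and 7.10 with IL6. Every signal with TGFb exceeded every signal without it by more than 2 log2 units, and Ahr rose by 3.18 ± 0.18, or 9.06-fold (limma adjusted p = 6.16e-11). Cyp1b1, whose promoter is printed above, had 8.36, 8.37, 8.15 and 8.52 with TGFb and IL6, against 6.16, 6.06 and 6.18 with IL6. It was well above background on all 4 arrays with TGFb and on 0 of 3 without it. The fit gave a 4.63-fold rise (limma adjusted p = 3.98e-11), which is not an exact size. A second, dimmer probe of Cyp1b1, above background on 1 array, differed by 0.25 (adjusted p = 0.168). Cyp1a1 had 8.97, 9.07, 9.14 and 9.49 with TGFb and IL6, against 6.92, 8.20 and 6.89 with IL6, with IL6 array 2 between the others and the TGFb_IL6 arrays. It rose by 1.85 ± 0.30 (limma adjusted p = 0.000192), and differed by 1.01 without IL6 arrays 1 and 3 (adjusted p = 0.0763). Ahrr, which represses the receptor, and Tiparp, which is induced by it and restrains it, also rose, so that 5 of 9 members tested rose and 1, Il22, fell. When IL6 arrays 1 and 3 were left out, 3 rose and 0 fell.

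Among components of the TGFb pathway, ligand and receptor genes rose in part. Tgfbr1, the type I receptor, had Treg signals of 10.99, 11.16, 11.36 and 11.59 with TGFb and IL6, against 9.91, 9.60 and 9.45 with IL6. The groups were apart by about 1 log2 unit at their closest, and Tgfbr1 rose by 1.58 ± 0.17 (limma adjusted p = 1.03e-06). Tgfbr2, the type II receptor, rose by 0.79 ± 0.20 (limma adjusted p = 0.0137), but IL6 array 2, at 10.28, lay inside the range of the TGFb_IL6 arrays, 10.12 to 10.59, and the difference without IL6 arrays 1 and 3 was 0.14 (adjusted p = 0.858). Tgfb3, a ligand, rose by 1.01 ± 0.14 (limma adjusted p = 1.95e-05). Itgb8, an integrin chain that releases TGFb from its latent form, had 6.95, 6.94, 6.72 and 7.08 with TGFb and IL6, against 8.25, 9.32 and 8.03 with IL6. It was lower on every array with TGFb, and fell by 1.59 ± 0.27 (limma adjusted p = 0.000388), while its 3 other, dimmer probes differed by -0.07, -0.80 and -0.32. Dim second probes of Tgfbr1 and Tgfbr2 differed by 0.23 and 0.06 and did not pass. Of 16 ligand, receptor and Smad genes tested, 4 rose (these 3 and Acvr1) and 1 fell, with a median of 0.18. The counts were 2 and 1 without IL6 arrays 1 and 3.

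In the list of feedback inhibitors of the pathway, which also holds its target genes Id1 and Id2, 7 of 14 members rose. Skil, which encodes SnoN, a repressor of Smad complexes, had 11.04, 10.84, 10.97 and 10.99 with TGFb and IL6, against 9.06, 8.74 and 9.38 with IL6. Ldlrad4, a membrane protein that keeps Smads from the receptor, had 10.42, 10.53, 10.18 and 10.19 with TGFb and IL6, against 7.58, 7.83 and 7.33 with IL6. Both genes were higher on all 4 arrays with TGFb, by 1.88 ± 0.11 for Skil (limma adjusted p = 8.69e-11) and by 2.79 ± 0.17 for Ldlrad4 (limma adjusted p = 1.38e-10). Pmepa1, a relative of Ldlrad4 with the same role, rose by 1.16 ± 0.19, and Smad7, the inhibitory Smad, by 1.08 ± 0.20. In a fit of the Treg channels of the 7 arrays alone Smad7 differed by 1.07 and did not pass (adjusted p = 0.0792). Smad7 had 9.13, 9.48, 9.16 and 9.92 with TGFb and IL6, against 8.71, 7.80 and 8.43 with IL6, with the gap between the groups smaller than the range within either. The others that rose were Ski, Tgif1 and Id1, and 2 fell, Tgif2 and Id2. Their median was 0.51, and without IL6 arrays 1 and 3, 6 rose and 2 fell.

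Other genes that TGFb is known to induce were divided. Nt5e, which encodes CD73, an enzyme that makes adenosine on Treg and Th17 cells, had 11.29, 11.11, 11.58 and 10.93 with TGFb and IL6, against 7.56, 8.83 and 7.05 with IL6. The signals with TGFb were all higher, with IL6 array 2 the highest of those without it, and Nt5e rose by 3.42 ± 0.35, or 10.7-fold (limma adjusted p = 4.39e-07). Xcl1, a chemokine that draws dendritic cells, rose by 2.76 ± 0.20, and Itgae, the integrin chain CD103 that binds epithelial E-cadherin, by 1.29 ± 0.23 (limma adjusted p = 1.7e-09 and 0.000577). With the Treg channels of the 7 arrays alone Itgae differed by 1.26 and did not pass (adjusted p = 0.0906). Junb, an AP-1 subunit, fell by 1.26 ± 0.19 (limma adjusted p = 0.000114), and a second probe differed by -0.87 (adjusted p = 0.0625). Without slide E the difference of Junb was -1.06 (adjusted p = 0.0885). In all, 7 of 21 rose (Nt5e, Xcl1, Itgae, Jun, Ccr8, Ski and Gpr83) and 2 fell (Junb and P2rx7), with a median of 0.05, against 7 and 2 without IL6 arrays 1 and 3.

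The highest differences among genes matched to the reference belonged to genes of other functions. Serpinb5, which encodes maspin of the serpin family, had 12.20, 12.43, 11.92 and 12.08 with TGFb and IL6, against 8.54, 6.98 and 7.99 with IL6. The 4 signals with TGFb lay more than 3 log2 units above the highest without it, and Serpinb5 rose by 4.32 ± 0.30, or 19.9-fold (limma adjusted p = 1.32e-09). Serpinb1a, an inhibitor of neutrophil elastase and a known gene of Th17 cells, had 12.39, 12.47, 12.25 and 12.26 with TGFb and IL6, against 8.03, 8.71 and 7.60 with IL6, and rose by 4.24 ± 0.18, or 18.9-fold (limma adjusted p = 3.18e-13). Its groups were as far apart as those of Serpinb5. Lhx6, a LIM homeobox factor known from interneurons, had 10.10, 10.34, 10.06 and 10.65 with TGFb and IL6, against 6.34, 6.09 and 6.17 with IL6. It was well above background on 4 of 4 arrays with TGFb and 0 of 3 without it. The fit gave a 16.8-fold rise (limma adjusted p = 3.06e-13), which is not an exact size. A second probe of Lhx6, above background on 2 arrays in all, differed by 0.09 (adjusted p = 0.699).

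Aqp3, a channel for water and glycerol, rose by 3.90 ± 0.28, and Ctsw, the lysosomal protease cathepsin W of cytotoxic lymphocytes, by 3.51 ± 0.11. Ctsw had signals of 13.12, 13.16, 12.96 and 12.98 with TGFb and IL6, against 9.73, 9.36 and 9.55 with IL6, and the lowest adjusted p of the comparison (5.53e-15, limma). Sgk1, a kinase that promotes Th17 cells, had 12.83, 13.08, 12.59 and 13.26 with TGFb and IL6, against 9.48, 10.17 and 8.98 with IL6. Each of the 4 signals with TGFb was higher by over 2 log2 units than any without it, and Sgk1 rose by 3.43 ± 0.30 (limma adjusted p = 4.92e-08). Myof, a membrane repair protein, rose by 3.48 ± 0.12, Fnbp1l, which bends membranes, by 3.34 ± 0.16, Rbp4, the retinol carrier, by 3.18 ± 0.17, Pdlim5, an actin-linked scaffold, by 3.07 ± 0.12, and Rgcc, a regulator of the cell cycle, by 2.98 ± 0.15. One probe outside this rule was higher still: the name Igh-VJ558 in the files stands for an immunoglobulin heavy chain variable family, whose members share sequence, and it was singled out after its value was seen. It averaged 11 with TGFb and IL6 and 6.21 with IL6, a difference of 4.79 ± 0.42 (limma adjusted p = 5.55e-08). Among the genes above, other probes of Pdlim5 differed by 2.76, 0.27 and -0.26. A second probe of Fnbp1l differed by 1.08, and other probes of Myof by 2.94 and 0.42. Rbp4 was well above background on 1 of 3 IL6 arrays and Myof on 2 of 3, so their differences are not exact sizes.

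Genes of the Treg programme moved both ways. Ikzf2, which encodes Helios, a zinc finger factor that marks Treg formed in the thymus, had 7.21, 7.13, 7.45 and 7.15 with TGFb and IL6, against 10.11, 10.15 and 10.35 with IL6. Signals with TGFb were lower than those without it on every array by more than 2 log2 units, and Ikzf2 fell by 3.00 ± 0.20, to 8-fold lower (limma adjusted p = 6.77e-10). Its other 4 probes fell as well, by 0.98 to 1.88, and 3 of these were above background on no array with TGFb. Foxp3 had 9.07, 9.19, 8.87 and 8.95 with TGFb and IL6, against 8.70, 8.81 and 7.89 with IL6, which do not overlap, but the difference of 0.59 ± 0.21 did not pass the threshold (limma adjusted p = 0.0934). Ctla4 (-0.31 ± 0.15, adjusted p = 0.244) and Il2ra (0.40 ± 0.21, adjusted p = 0.296) did not pass in the limma fit either, and the difference of Il2ra was 1.09 against IL6 array 2 alone (adjusted p = 0.00379, with the spread of other groups).

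Surface molecules of activated Treg were among those that fell. Cd83, a glycoprotein of activated Treg and dendritic cells, had 6.73, 6.77, 6.74 and 6.71 with TGFb and IL6, against 8.98, 8.14 and 9.53 with IL6. The TGFb_IL6 arrays lay within 0.1 of each other and below all 3 IL6 arrays, and Cd83 fell by 2.18 ± 0.20 (limma adjusted p = 1e-07). Tnfrsf9, the costimulatory receptor 4-1BB, fell by 1.74 ± 0.13 (limma adjusted p = 3.22e-09), while a second probe, above background on 1 array, differed by 0.15. Of 28 Treg core genes tested, 8 rose (Tnfrsf1b, Itgae, Gpr83, Nt5e, Entpd1, Il10, Capg and Socs2) and 7 fell (Ikzf2, Tnfrsf4, Tnfrsf9, Ebi3, Cd83, Itgb8 and Prdm1), with a median of -0.13, and 7 rose and 5 fell without IL6 arrays 1 and 3. Nt5e and Entpd1, which encode the ectoenzymes CD73 and CD39 that together turn ATP into adenosine, were both among those that rose.

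Components of the IL6 pathway also differed although IL6 was present in both groups. Il6st, the signalling chain gp130, had 10.72, 10.59, 10.55 and 10.93 with TGFb and IL6, against 8.56, 8.65 and 8.73 with IL6. No signal with TGFb came within 1 log2 unit of one without it, and Il6st rose by 2.05 ± 0.11, or 4.16-fold (limma adjusted p = 3.21e-11). Il6ra, the IL6-binding chain, had a mean of 7.36 ± 0.39 with TGFb and IL6 and 7.34 ± 0.29 with IL6 (SD, n = 4 and 3), a difference of 0.02 ± 0.23 (limma adjusted p = 0.983). Socs3, the feedback inhibitor induced by STAT3, differed by 0.21 ± 0.24 (limma adjusted p = 0.696), with IL6 array 2 the highest of all 7 at 12.47. Of 23 genes of the IL6 and STAT3 response, 8 rose (Stat3, Il6st, Il21r, Cebpd, Pim2, Myc, Il10 and Il1r1) and 6 fell (Batf, Cebpb, Fos, Junb, Prdm1 and Nfil3), with a median of 0.02. With IL6 array 2 as the only IL6 array, 7 rose and 1 fell.

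In the IL2 and STAT5 list, 7 of 19 rose and 3 fell, with a median of 0.39. Socs2, a feedback inhibitor of STAT5 signalling, had 13.43, 13.49, 13.08 and 13.55 with TGFb and IL6, against 11.34, 10.35 and 10.88 with IL6. The groups were well apart, and Socs2 rose by 2.54 ± 0.30 (limma adjusted p = 4.27e-06). Lta, the cytokine lymphotoxin, rose by 1.65 ± 0.20, and Osm, a cytokine that also signals through gp130, by 1.33 ± 0.24 (limma adjusted p = 3.78e-06 and 0.000663). Pim2, Ccnd3, Myc and Il4ra rose too, and Il2, Bcl2l1 and Tnfrsf9 fell; the counts were 6 and 2 without IL6 arrays 1 and 3.

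Th2 genes that passed were mostly lower and Th1 genes moved both ways, and IL6 array 2 stood apart at several of them. Gata3, the master factor of Th2 cells that Treg also use, had 7.77, 7.86, 7.59 and 8.0 with TGFb and IL6, against 11.75, 9.55 and 11.51 with IL6. It was lower on every array with TGFb, least so against IL6 array 2, and fell by 3.16 ± 0.44, to 8.91-fold lower (limma adjusted p = 3.28e-05). Without IL6 arrays 1 and 3 it fell by 1.78 (adjusted p = 0.0255). The Th2 cytokine Il4 had 7.71, 7.99, 7.73 and 8.06 with TGFb and IL6, against 10.47, 7.45 and 10.40 with IL6. Array 2 lay below all 4 arrays with TGFb, so the groups overlapped. Il4 fell by 1.58 ± 0.49 (limma adjusted p = 0.0456), and without IL6 arrays 1 and 3 its difference was 0.47 (adjusted p = 0.129). Il24, a cytokine of Th2 cells, fell by 1.40 ± 0.34 (limma adjusted p = 0.00956), but differed by -0.31 without IL6 arrays 1 and 3 (adjusted p = 0.808), and a second probe, above background on all 7 arrays, differed by -0.39 (adjusted p = 0.615). Of 13 Th2 genes, 2 rose (Il4ra and Il9) and 5 fell (Gata3, Il4, Il13, Il24 and Nfil3), with a median of -0.37, and without IL6 arrays 1 and 3, 1 rose and 1 fell.

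**Figure D3:**
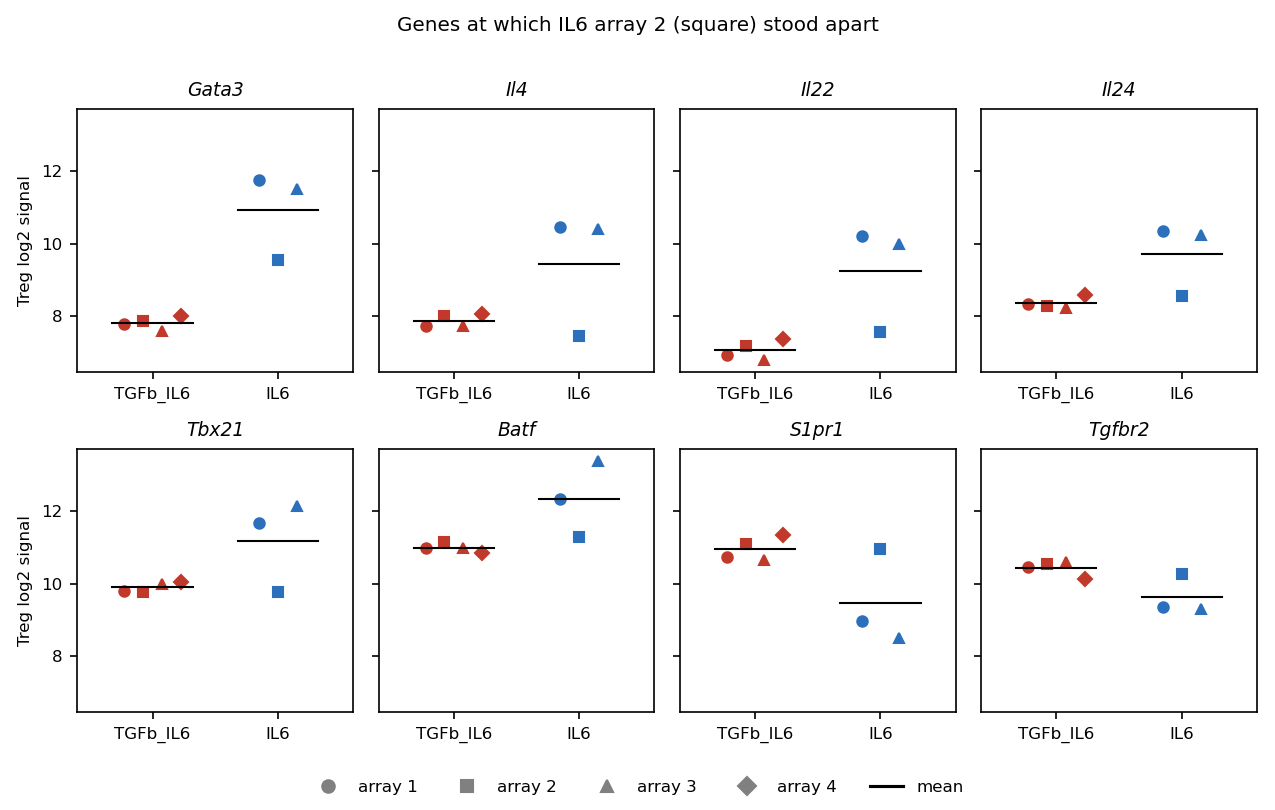
Treg log2 signals (y axis, 1 scale for all panels) of 8 genes, chosen after their values were seen, with TGFb and IL6 (TGFb_IL6, red, 4 arrays) and with IL6 (blue, 3 arrays); points are arrays and bars are means. IL6 array 2, the blue square, lies next to or among the TGFb_IL6 arrays at 7 of the panels and between the groups at Gata3, where it reads 9.55 beside 11.75 and 11.51.

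Ccl5, the chemokine RANTES of cytotoxic and Th1 cells, had 7.92, 7.99, 7.84 and 7.84 with TGFb and IL6, against 10.70, 10.07 and 10.81 with IL6. It was lower on every array with TGFb and fell by 2.61 ± 0.18, or 6.12-fold (limma adjusted p = 1.26e-09), as did its second probe, by 2.54. Stat4, which carries the IL12 signal, had a mean of 8.24 ± 0.08 with TGFb and IL6 and 9.26 ± 0.04 with IL6 (SD, n = 4 and 3) and fell by 1.04 ± 0.12 (limma adjusted p = 2.29e-06). Tbx21, which encodes T-bet, the master factor of Th1 cells, fell by 1.38 ± 0.38 (limma adjusted p = 0.0229), with IL6 array 2, at 9.76, below all 4 arrays with TGFb and a difference of -0.09 without IL6 arrays 1 and 3 (adjusted p = 0.967). Cxcr3, a chemokine receptor of Th1 cells, rose by 0.99 ± 0.21 (limma adjusted p = 0.0028), and differed by 0.77 without those arrays (adjusted p = 0.163). Of 20 Th1 and cytotoxic genes, 5 rose (Cxcr3, Nkg7, Il18rap, Ccl4 and Tnf) and 3 fell (Ccl5, Stat4 and Tbx21), with a median of 0.22. Of 13 follicular helper genes 0 rose and 3 fell: Cd200, a ligand of an inhibitory receptor, by 1.49 ± 0.13, the inhibitory receptor gene Btla by 0.91 ± 0.14, and Il4 (median -0.15). Against IL6 array 2 alone, 3 Th1 and cytotoxic genes rose and 2 fell, and 1 follicular helper gene rose and 4 fell.

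Genes of resting and migrating T cells were divided as well. Igfbp4, which binds insulin-like growth factors, rose by 2.33 ± 0.21, and Satb1, a chromatin organizer that Treg hold low, fell by 1.05 ± 0.17 (limma adjusted p = 7.13e-08 and 0.00019), though Satb1 did not pass without IL6 arrays 1 and 3, at -0.74 (adjusted p = 0.0854). Of 17 naive and memory genes, 4 rose (Igfbp4, Ccr7, S1pr1 and Foxo1) and 3 fell (Satb1, Cd27 and Dapl1), with a median of 0.08. S1pr1, the receptor by which T cells leave lymph nodes, had 10.75, 11.10, 10.64 and 11.34 with TGFb and IL6, against 8.96, 10.96 and 8.51 with IL6, with IL6 array 2 among the arrays with TGFb. It rose by 1.51 ± 0.41 (limma adjusted p = 0.0201), but differed by 0.04 without IL6 arrays 1 and 3 (adjusted p = 0.984). Among 23 genes of chemokine receptors and adhesion, 8 rose (Ccr7, Ccr8, Cxcr3, Cxcr6, Itgb1, Itgb2, Itgae and S1pr1) and 2 fell, Itgb8 and Ccr2, a receptor of inflammatory migration (-1.38 ± 0.14). Leaving out IL6 arrays 1 and 3, the difference was 2.03 for Igfbp4 and -1.15 for Ccr2.

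Of 25 genes of glycolysis and hypoxia, 13 fell and 2 rose, and 23 had a difference under 0. The median was -0.77. Tpi1, triosephosphate isomerase of glycolysis, had 12.72, 12.81, 12.30 and 12.56 with TGFb and IL6, against 14.06, 13.49 and 13.89 with IL6. It was lower on every array with TGFb and fell by 1.20 ± 0.18 (limma adjusted p = 9.49e-05). The lactate exporter Slc16a3 fell by 1.53 ± 0.44, the hypoxia-induced Bnip3 of mitochondrial removal by 1.05 ± 0.22, and the phosphofructokinase gene Pfkl by 1.03 ± 0.30 (limma adjusted p = 0.0286, 0.00294 and 0.0325), and none of these 3 passed without IL6 arrays 1 and 3. Egln3 and P4ha1, both induced by hypoxia, rose. Without IL6 arrays 1 and 3, 4 members fell and 1 rose, with a median of -0.33, and without IL6 array 2 the counts were 17 and 1.

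Of 22 immediate early genes, which follow T cell receptor signals, 10 fell (Egr1, Egr2, Egr3, Nr4a2, Fos, Junb, Dusp2, Dusp6, Atf3 and Nfatc1) and 1, Jun, rose, with a median of -0.46. Nr4a2, a nuclear receptor induced by receptor signals, had 8.30, 8.55, 8.21 and 8.66 with TGFb and IL6, against 9.37, 9.47 and 9.39 with IL6. It was lower on all arrays with TGFb and fell by 0.98 ± 0.12 (limma adjusted p = 7.34e-06). Jun, an AP-1 subunit, had 8.83, 8.80, 8.70 and 8.78 with TGFb and IL6, against 7.84, 7.56 and 7.46 with IL6, in the opposite direction on every array, and rose by 1.16 ± 0.10 (limma adjusted p = 5.98e-08). Atf3, a stress-induced factor, fell by 1.39 ± 0.26, but differed by -0.51 without IL6 arrays 1 and 3 (limma adjusted p = 0.000749 and 0.176). Without those arrays 5 members fell and 1 rose.

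Proliferation, sterol synthesis and interferon lists differed in how many members passed, beside 10.2% of all genes tested in either direction. Of 30 cell cycle genes 0 rose and 1 fell, Mcm3 of the replicative helicase (-0.81 ± 0.16, limma adjusted p = 0.00183). Mcm3 had no value on IL6 array 2, so its difference rests on IL6 arrays 1 and 3, and its second probe, above background on all 7 arrays, differed by -0.14 (adjusted p = 0.758). The list median was 0.16. Of 22 cholesterol synthesis genes 1 rose, the squalene epoxidase gene Sqle (0.54 ± 0.17, limma adjusted p = 0.048), and 0 fell, but Sqle did not pass without IL6 array 2, at 0.37 (adjusted p = 0.234; list median -0.17). Of 23 interferon response genes 1 rose, the GTPase gene Gbp2 (0.45 ± 0.12), and 4 fell, Isg15, Oas1a, Usp18 and Ifih1, the RNA sensor MDA5, which fell by 1.55 ± 0.15 (limma adjusted p = 1.32e-07; list median -0.15). Gbp2 did not pass without IL6 arrays 1 and 3, at 0.42 (adjusted p = 0.181), where 0 interferon genes rose and 2 fell, 4 cell cycle genes rose and 0 fell, and 2 cholesterol synthesis genes rose and 0 fell.

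**Figure D4:**
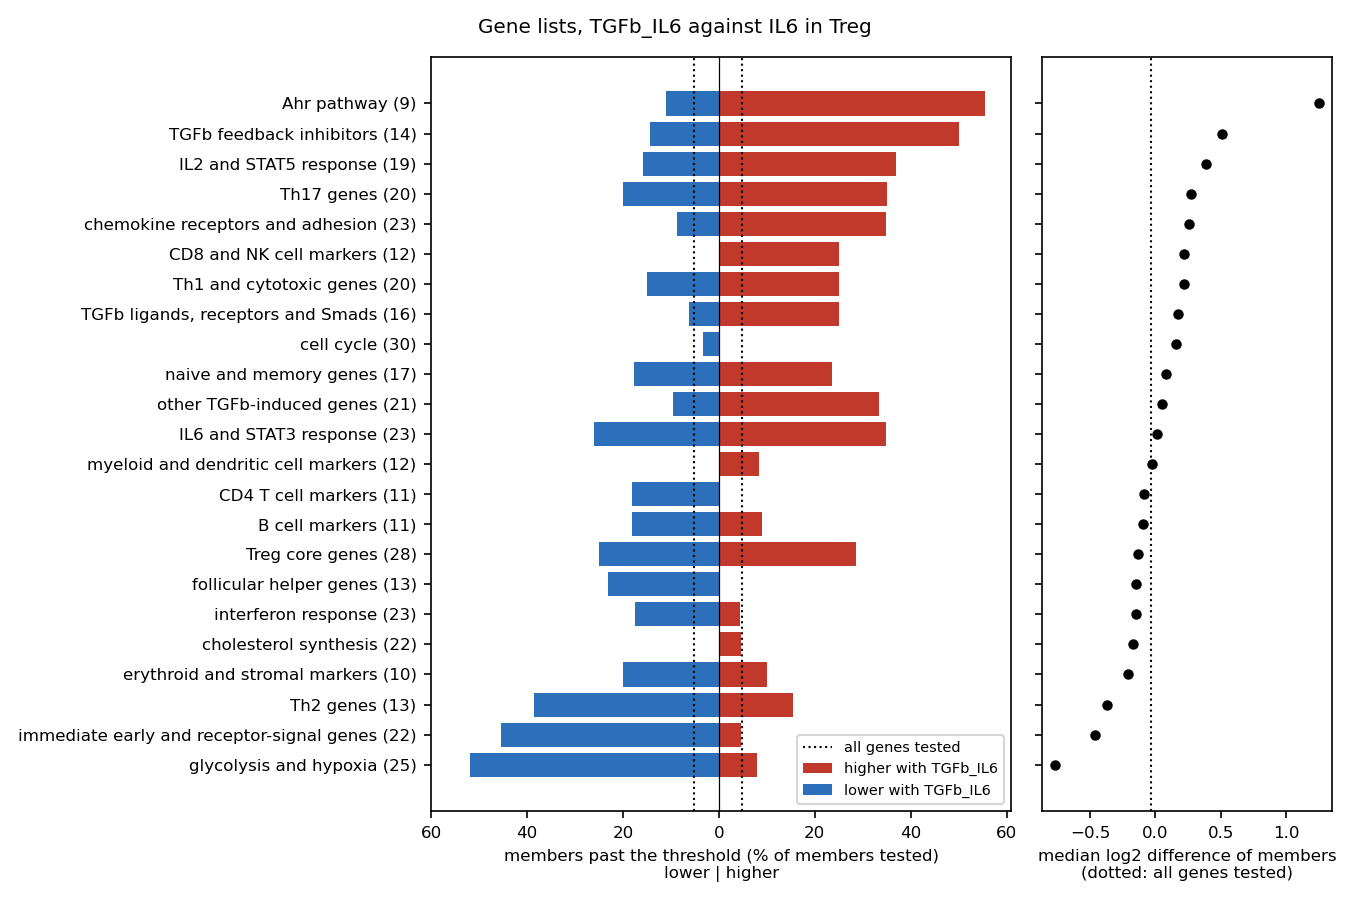
The share of each list's tested members (number in parentheses) that were higher (red, right) or lower (blue, left) in TGFb_IL6 than in IL6 Treg samples, in percent of the members, beside the median log2 difference of the members (right panel). Dotted lines give the same over all genes tested, 4.92% higher, 5.26% lower and a median of -0.03; the Ahr pathway, with a median of 1.25, and glycolysis and hypoxia, with -0.77, lie at the ends of this plot, an order that other settings change.

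Markers of other cell types changed in part, where 10.2% of all genes tested passed in either direction. Of 11 B cell markers 1 rose, Ighm, the heavy chain of IgM (0.60 ± 0.12), and 2 fell, Cd79b (-1.58 ± 0.25) and Cd74, the invariant chain of class II antigen presentation (-1.63 ± 0.13). Their summed signal ran from 5148 to 5709 on a linear scale with TGFb and IL6 and from 4247 to 5215 with IL6, and Pax5, Blk, Cd22 and Fcer2a were not well above background in any of the 7 Treg channels. Of 12 CD8 and NK cell markers 3 rose and 0 fell. Cd8a, a chain of the CD8 coreceptor, had 10.09, 10.19, 9.93 and 10.33 with TGFb and IL6, against 8.90, 7.55 and 8.57 with IL6, higher on every array with TGFb, and rose by 1.79 ± 0.38 (limma adjusted p = 0.00336), as did its 2 other probes. Klrd1, the NK receptor CD94, rose by 2.49 ± 0.23 and its partner gene Klrc1 by 1.17 ± 0.19. The summed signal of this list ran from 5707 to 6248 with TGFb and IL6 and from 2214 to 9012 with IL6, with Ncr1 not above background in any channel. Of 12 myeloid and dendritic cell markers 1 rose (Mpeg1) and 0 fell, with sums of 1686 to 2517 with TGFb and IL6 and 2035 to 3180 with IL6. Of 10 erythroid and stromal markers 1 rose (Epcam) and 2 fell (Pecam1 and Krt18), with sums of 927 to 1223 with TGFb and IL6 and 1080 to 1265 with IL6. Of 11 CD4 T cell markers 0 rose and 2 fell, Cd3d (-0.41 ± 0.12) and Cd28 (-0.55 ± 0.14), with sums of 57330 to 65103 with TGFb and IL6 and 69481 to 74955 with IL6. Without IL6 array 2 they differed by -0.30 and -0.40 and did not pass (adjusted p = 0.142 and 0.0742). Ighm, Cd79b and Klrc1 did not pass without IL6 arrays 1 and 3 (0.28, -0.62 and 0.47, adjusted p = 0.266, 0.095 and 0.229). The part of such cells in the results was not tested.

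Genes of several kinds stood at the low end, beside Gata3, Ikzf2 and Ccl5 described above. Calcrl, the receptor for calcitonin gene-related peptide and adrenomedullin, had 7.82, 7.98, 7.68 and 8.17 with TGFb and IL6, against 11.23, 11.40 and 11.05 with IL6. All 4 signals with TGFb lay about 3 log2 units below the 3 without it, and Calcrl fell by 3.30 ± 0.22, or 9.86-fold (limma adjusted p = 5.06e-10). Penk, which encodes the precursor of the enkephalin peptides, had 7.84, 8.10, 7.52 and 8.17 with TGFb and IL6, against 10.98, 10.78 and 10.89 with IL6, and fell by 2.97 ± 0.20 (limma adjusted p = 5.35e-10). The stefin genes Csta2 and Cstdc6, whose products inhibit cysteine proteases, fell by 3.01 ± 0.17 and 2.83 ± 0.11; as members of 1 gene family their probes may share signal. Nrn1, a membrane-anchored protein of neurons and T cells, fell by 2.96 ± 0.36, St3gal1, a sialyltransferase, by 2.54 ± 0.19, Tnfsf8, the ligand of CD30, by 2.54 ± 0.31, and Il1r2, the decoy receptor for IL1, by 2.39 ± 0.22. Cavin3, a coat protein of caveolae, was well above background on no array with TGFb and on all 3 without it. The fit gave a 5.58-fold fall (limma adjusted p = 1.79e-09), which is not an exact size.

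The TGFb difference with IL6 was set against the TGFb difference without IL6 (TGFb against IL2, 3 arrays each) in the same fit, with a test of the difference between them. This difference passed the threshold for 189 genes, 0.948% of all genes tested, 115 with a more positive difference with IL6 and 74 with a more negative one. Of these, 140 were among the 2029 genes above, and without IL6 array 2 the difference passed for 434 genes. The IL2 arrays were not uniform either. In their Treg channels Y-linked Eif2s3y ran from 7.63 on array 3 to 10.13 on array 1, a wider range than with TGFb alone. Tbx21 had 10.21 on IL2 array 1, beside 12.19 and 12.21 on the others. Only slide D held both a TGFb and an IL2 array. The part of these differences between samples and slides in the 189 genes was not tested. Il17f rose by 3.11 ± 0.12 with IL6 and by 0.45 ± 0.13 without it, a difference of 2.66 ± 0.18 (limma adjusted p = 8.7e-09). Its signals without IL6 were 6.65, 6.70 and 6.84 with TGFb, against 6.20, 6.45 and 6.27 with IL2, all below every signal with TGFb and IL6. Il17f was well above background on 2 of 3 arrays with TGFb alone and 1 of 3 with IL2, so its difference is not an exact size. Ahr (1.73 ± 0.27) and Il6st (1.28 ± 0.17) likewise had a more positive difference with IL6 (limma adjusted p = 0.000966 and 0.000135). Cyp1b1 was well above background on 4 of 4 arrays with TGFb and IL6, 1 of 3 with TGFb alone and 0 of 3 in each of the IL6 and IL2 groups, so no size is given for its difference.

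Some genes went in opposite directions. Il10 rose by 1.71 ± 0.29 with IL6 and fell by 1.20 ± 0.31 without it (difference 2.90 ± 0.43, limma adjusted p = 0.000564), and Il1r1 rose by 1.41 ± 0.13 and fell by 0.88 ± 0.14 (difference 2.29 ± 0.19, limma adjusted p = 3.14e-07). Serpinb5 and Serpinb1a had differences of 4.32 ± 0.30 and 4.24 ± 0.18 with IL6, against -0.12 ± 0.32 and 0.26 ± 0.19 without it, neither of the last 2 past the threshold. Serpinb5 signals without IL6 lay between 5.77 and 6.22 in all 6 Treg channels. Fnbp1l (2.17 ± 0.23), Rgcc (2.22 ± 0.22) and Il9 (2.43 ± 0.52) also differed. Cd24a, a surface glycoprotein, rose by 2.20 ± 0.22 without IL6 and differed by -0.06 ± 0.21 with it, with a limma adjusted p of 0.000214 for the difference between them. Il1r1 was not well above background on any array with TGFb and no IL6, nor Serpinb5 on any array without IL6, so their differences are not exact sizes. Akr1c18, a progesterone-converting enzyme, fell by 2.33 ± 0.32 with IL6 and differed by 0.16 ± 0.34 without it, and Cd74 by 1.63 ± 0.13 and -0.05 ± 0.14 (limma adjusted p of the differences 0.00642 and 7.69e-05). IL6 array 2 stood apart at Akr1c18, at 12.31 beside 14.35 and 14.43. Without IL6 arrays 1 and 3 the differences with IL6 were -0.91 for Akr1c18, -1.62 for Cd74 and 0.47 for Cd24a.

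For the feedback inhibitors Ldlrad4, Skil, Pmepa1 and Smad7 the difference between the TGFb effects with and without IL6 was 0.21 ± 0.25, 0.20 ± 0.16, -0.03 ± 0.28 and -0.30 ± 0.29, none past the threshold (limma adjusted p = 0.948, 0.905, 0.994 and 0.931). Ikzf2 fell by 3.00 ± 0.20 with IL6 and by 1.93 ± 0.21 without it, a difference of -1.07 ± 0.29 that did not pass (limma adjusted p = 0.107). A difference that misses the threshold does not show that the effects were alike. Without IL6, TGFb raised 3.71% and lowered 4.15% of all genes tested. Side by side, 7 Th17 genes rose with TGFb in the presence of IL6 and 3 without it, 5 and 2 of the Ahr pathway, 7 and 9 of the feedback inhibitors, and 8 and 2 of the IL6 and STAT3 response, of which 6 and 11 fell.

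The TGFb difference with IL6 was also set against that in the T-effector samples of the same 7 arrays. The difference between them passed for 1272 genes, 6.38% of all genes tested, 575 with a more positive difference in Treg and 697 with a more negative one, and 480 of them were among the 2029 genes above. The count ran from 570 without TGFb_IL6 array 1 to 2388 without IL6 array 1. Y-linked Eif2s3y had T-effector signals of 6.51, 6.48, 6.47 and 6.02 with TGFb and IL6. Treg samples of those arrays had 9.29, 9.06, 9.58 and 8.78. On IL6 arrays 1 and 3 Eif2s3y had 6.11 and 6.05 in T-effector samples, beside 6.46 and 6.38 in Treg samples. Eif2s3y was well above background in 2 of 4 and 1 of 3 T-effector samples. Its difference between cell types was 2.47 ± 0.51 (limma adjusted p = 0.00708). The part of this in the results was not tested. Ikzf2 fell by 3.00 ± 0.20 in Treg and differed by -0.30 ± 0.20 in T-effector samples (difference -2.70 ± 0.21, limma adjusted p = 1.23e-07). In T-effector samples its log2 signals were 7.0, 6.80, 6.68 and 6.79 with TGFb and IL6, against 7.71, 6.95 and 6.79 with IL6. Those are near the level that Treg samples had with TGFb and IL6. Kcna7 (-3.13 ± 0.56), Acsf2 (-3.04 ± 0.47), Rab11fip5 (-2.71 ± 0.59) and Lrrc71 (-2.70 ± 0.41) had differences between cell types at or below that of Ikzf2. These genes rose past the threshold in T-effector samples and did not pass in Treg. Csta2, Cstdc6, Itgb8 and Penk had a more negative difference in Treg too (-2.58 ± 0.18, -2.68 ± 0.12, -1.79 ± 0.29 and -1.72 ± 0.21). Itgb8 was well above background in 1 of 4 TGFb_IL6 and 1 of 3 IL6 T-effector samples, so its value is not an exact size. Junb fell by 1.26 ± 0.19 in Treg and differed by 0.31 ± 0.19 in T-effector samples (limma adjusted p of the difference = 0.000144), and Socs3 rose by 1.65 ± 0.24 in T-effector samples (limma adjusted p of the difference = 0.00195).

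Higher in the Treg difference were Il3, a haematopoietic cytokine (2.59 ± 0.11 in Treg, 0.42 ± 0.11 in T-effector samples; difference 2.16 ± 0.12, limma adjusted p = 2.21e-10), Serpinb5 (2.02 ± 0.32), Rbp4 (1.88 ± 0.18), Cd8a (1.64 ± 0.41), Xcl1 (1.43 ± 0.21) and Cxcr3 (1.1 ± 0.22). The value of Rbp4, well above background in 1 of 3 IL6 Treg samples, is not an exact size. Il17f rose in both, by 3.11 ± 0.12 in Treg and 3.61 ± 0.12 in T-effector samples, with a difference of -0.50 ± 0.13 (limma adjusted p = 0.0202). Aqp3, Rgcc, Cyp1a1 and Smad7 also rose less in Treg (-1.39 ± 0.30, -1.16 ± 0.16, -1.38 ± 0.32 and -1.09 ± 0.21). For Ahr and Serpinb1a the difference was -0.15 ± 0.19 and 0.19 ± 0.19 and did not pass (limma adjusted p = 0.693 and 0.595). In T-effector samples 13 genes of glycolysis and hypoxia fell and 1 rose, beside 13 and 2 in Treg. Of the cholesterol synthesis genes, 10 fell in T-effector samples and 0 in Treg, where 5.22% of all genes tested rose and 5.99% fell in T-effector samples.

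**Figure D5:**
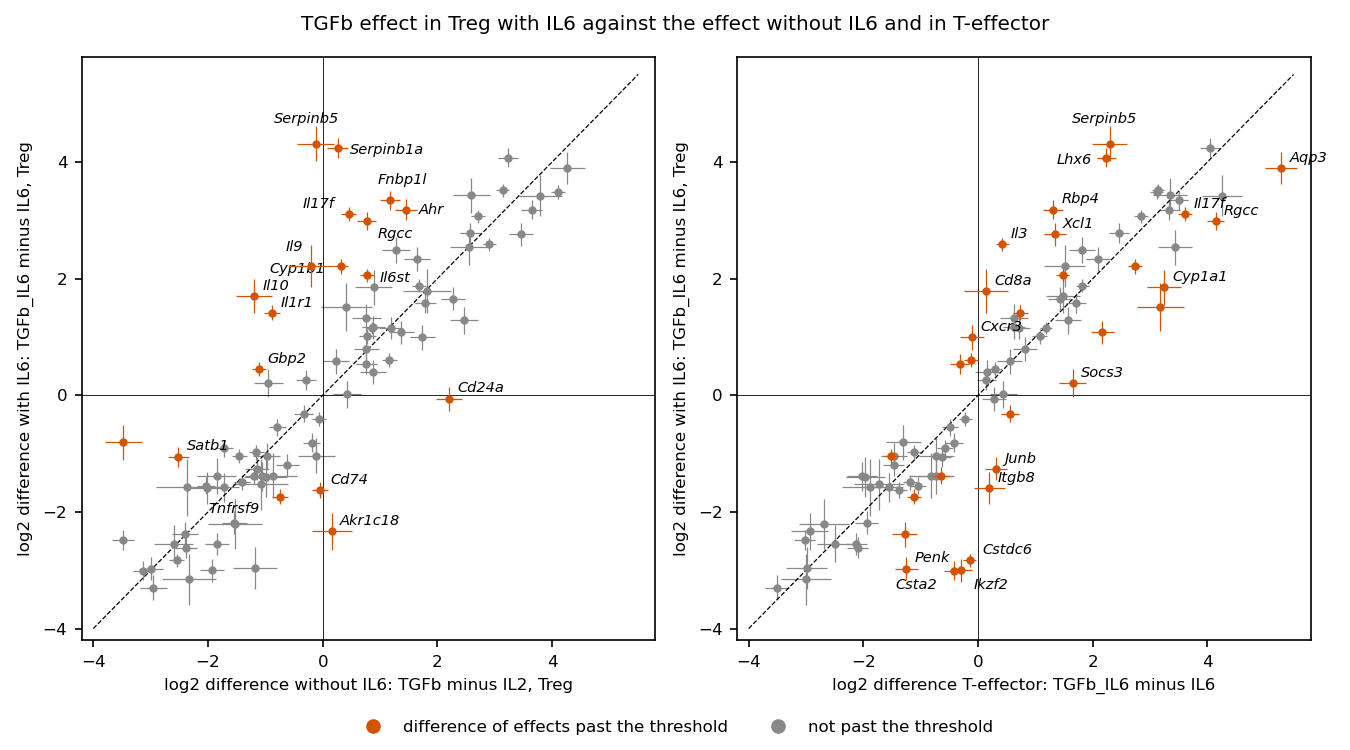
The log2 difference between TGFb_IL6 and IL6 in Treg (y axis of both panels) against that between TGFb and IL2 in Treg (left) and that between TGFb_IL6 and IL6 in T-effector samples (right), for the genes with full statistics, with standard errors as bars and the line of equal differences dashed. Orange marks genes whose 2 differences differ past the threshold: Serpinb5, Serpinb1a and Il17f lie high above the line on the left, and Ikzf2, Csta2 and Cstdc6 far below it on the right.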

How the data were processed

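RNA was measured on 13 two-colour arrays, each with a Treg and a T-effector sample on opposite dyes. The deposited values are spot intensities from Agilent Feature Extraction 9.5.1.1, per the file headers. Mean and local background intensity were corrected with normexp (offset 50), normalized within arrays by loess and between arrays by Aquantile (R 4.3.3, limma 3.58.1). Of 41174 probes, 28969 passed a filter on dim probes (well above background in 3 or more of the 26 channels), and the brightest probe stood for each of 19932 genes. A separate-channel model with condition and cell type, a dye term and the array as a block (intraspot correlation 0.45, 17 residual degrees of freedom) was fitted over all 13 arrays and tested with limma's moderated test, with Benjamini-Hochberg adjustment. The number of arrays limits the precision. Only the fit and its test were run on simulated log2 signals with known changes. Background correction, normalization, the filter and the choice of probes were not simulated. A sample with a missing spot was left out for that gene.

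The genes given with values are 13 chosen genes, up to 4 members of each of 23 lists with the highest absolute change past the threshold, and a selection of the 15 highest and 15 lowest genes whose groups did not overlap and of the 5 highest and 5 lowest in each difference of effects. The genes compared and the lists were chosen with earlier results of these data known. Some genes are not reported here and were left out of the lists. Array numbers could have paired the conditions, and the deviations of same-numbered arrays from their group means correlated at 0.14, 0.242 and 0.488. Those arrays shared a dye, and after removal of the dye term, which the model holds, the correlations were 0.346, -0.15 and 0.0525, so the arrays were not treated as paired. Alternatives covered the test, dye term, background correction, normalization, spatial trend, dim probes, slides and single arrays. The authors' table of ratios of both cell types was not used, since it gives no level of the Treg channel alone.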

Additional observations from a re-analysis of the deposited data

Results flagged for a closer look

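Among the 4 Treg signals with TGFb and IL6, a single array stood far from the other 3 at 4 genes. The gap to the nearest array took up 0.846 of the range for Xcl1 (array 4), 0.838 for Stat4 (array 2), 0.941 for Ighm (array 1) and 0.859 for Mcm3 (array 4); each is above Dixon's critical value for 4 samples. Chance gives about 1 such group in 20, and all genes with full statistics were screened, so several such groups come by chance.

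The TGFb effect in Treg differed with and without IL6 past the limma threshold at the following named genes, given as the log2 difference with IL6 minus that without. More positive with IL6 were the Th17 genes Il17f (2.66), Ahr (1.73), Il1r1 (2.29), Il10 (2.9) and Il9 (2.43), the cytochrome gene Cyp1b1 (1.9) and the receptor chain Il6st (1.28). The serpin genes Serpinb5 (4.43) and Serpinb1a (3.98) had the largest values of the named genes, followed among others by Edn1 (2.67), Rgcc (2.22), Fnbp1l (2.17), Gbp2 (1.56) and Satb1 (1.47). More negative with IL6 were Akr1c18 (-2.49), Cd24a (-2.26), Cd74 (-1.58) and Tnfrsf9 (-0.99). Cyp1b1, Il1r1, Serpinb5 and Edn1 each lacked signal well above background in a whole group among the 4 compared, so their values are not exact sizes. The value of Il17f is not exact either, with 2 of 3 TGFb and 1 of 3 IL2 arrays well above background.

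The TGFb effect with IL6 also differed between Treg and T-effector samples, given as Treg minus T-effector. It was more negative in Treg at Ikzf2 (-2.7), Cstdc6 (-2.68), Csta2 (-2.58), Itgb8 (-1.79), Penk (-1.72), S1pr1 (-1.67), Junb (-1.57), Socs3 (-1.44), Aqp3 (-1.39), Cyp1a1 (-1.38), Rgcc (-1.16), Il1r2 (-1.11), Smad7 (-1.09), Ctla4 (-0.872), Ccr2 (-0.726), Tnfrsf9 (-0.621), Cyp1b1 (-0.519) and Il17f (-0.503). It was more positive in Treg at Il3 (2.16), Serpinb5 (2.02), Rbp4 (1.88), Lhx6 (1.83), Cd8a (1.64), Xcl1 (1.43), Cxcr3 (1.1), Sqle (0.862), Ighm (0.732), Il1r1 (0.675), Il6st (0.577) and Stat4 (0.475). In Treg, Cyp1b1 and Lhx6 lacked signal well above background on all 3 IL6 arrays, so their values are not exact sizes. Rbp4, well above background in 1 of 3 IL6 Treg samples, gives no exact size. The value of Itgb8 is not exact either, with 1 of 4 TGFb_IL6 and 1 of 3 IL6 T-effector samples well above background.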

How the results depend on the processing

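The 2029 genes of the TGFb comparison were 2516 with Agilent's processed signals, 2860 once each channel's spatial trend was removed, 1737 with slide as a block, 890 with the Treg channels of the 7 arrays alone, 1094 with arrays of a slide averaged, 1143 without slide E (400 higher and 743 lower) and 1264 to 2150 with single arrays left out, the lowest without IL6 array 3. Leaving out IL6 arrays 1 and 3, slide E or slide B was chosen after seeing the data. Without IL6 arrays 1 and 3 and without slide E, 2003 and 2007 of the 2029 kept their direction. The arrays left in both fits are also behind the 2029 calls, so that agreement is in part built in.
The 189 genes that differed with and without IL6 were 88 with the Treg channels of 13 arrays, 121 without the offset, 364 after removal of the spatial trend, 115 with averaged arrays, 354 without IL6 arrays 1 and 3, 109 without slide B and 144 to 434 with single arrays left out, the highest without IL6 array 2.
The 1272 genes that differed between cell types were 688 with no dye term, 3886 with Agilent's processed signals, 3622 with the spatial trend removed, 2344 with slide as a block, 416 with averaged arrays, 2835 without IL6 arrays 1 and 3, 436 without slide B, 2331 without slide E and 570 to 2388 with single arrays left out, the lowest without TGFb_IL6 array 1 and the highest without IL6 array 1.
With the array number as a replicate block the 3 counts were 1709, 164 and 1141, and Il4, Tbx21, Pfkl, Sqle and Cd3d did not pass. Same-numbered TGFb_IL6 and IL6 arrays share a dye, and whether they share a culture was not tested.
Of 2247 values of named genes under an alternative, 2056 kept direction and side of the threshold, 166 no longer passed, 6 newly passed and 19 changed sign. Il6ra, near 0 throughout, was -0.025 and -0.033 with the Treg channels of 13 and of 7 arrays, -0.019 without background subtraction, -0.035 where normexp was fitted on every spot, -0.015 without the offset, -0.014 with quantile normalization, and -0.14 to 0.21 with single arrays left out. Cd24a was 0.066 with averaged arrays, 0.47 without IL6 arrays 1 and 3, 0.48 without slide E and -0.32 to 0.22 with single arrays left out. Without IL6 arrays 1 and 3 and without slide E, Socs3 was -0.34 and -0.42, and Il4 was 0.47 and 0.57. With other settings the list medians changed order: with no filter on dim probes the Ahr pathway (0.25) lay below the feedback inhibitors (0.51), and Th2 genes lay below glycolysis and hypoxia with Agilent's processed signals (-0.92 and -0.8) and without the offset (-0.81 and -0.77), as did B cell markers under the stricter filter (-0.82) and follicular helper genes without IL6 arrays 1 and 3 (-0.7) or slide E (-0.64). The cause was not tested. Within slide E values were taken and no test was run. Dim probes limit the folds, since a probe not well above background gives no exact fold.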
